A study of Homo sapiens with 4 samples.

Results

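The clustered protocadherin genes lie side by side on the long arm of chromosome 5 in an alpha, a beta and a gamma cluster. The members described here were the 166 summits, of 371521 in the deposited list, whose position fell between 140160001 and 140900001 on chromosome 5 of hg19. They lay in 108 regions. Positions alone chose them, and no fold or p-value entered the choice. The alpha cluster ran from 140160001 to 140400000 and held 53 summits, the beta cluster from 140400001 to 140640000 held 6, and the gamma cluster from 140700001 to 140900001 held 105. The other 2 summits lay in the 60 kb between beta and gamma.

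The list comes from ATAC-seq, where accessible DNA is cut and tagged by a transposase, on T47D-MTVL cells, a T47D breast cancer derivative with an MMTV promoter driving a stably integrated luciferase gene. The 4 samples are 2 with an shRNA against multiple histone H1 variants (multiH1) and 2 with a random shRNA, and both kinds of cell carry the reporter. The 1 deposited list is named multiH1sh DifferentialRDsh, and its track line names 225sh and RDsh. That 225sh is the multiH1 knock-down is an assumption. If the list holds differences from control, sites open alike in both kinds of cell could be missing from it. The list has no value per sample. No spread between replicates and no test of knock-down against control can therefore be given, and each fold and p-value of a summit below is the authors'. The list gives no expression, so the cell type was not checked against markers.

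Clustered protocadherins are cadherin-like adhesion proteins, known best from the nervous system, where different neurons express different combinations of them. Each alpha and gamma gene has its own promoter and its own large variable exon, which is spliced to constant exons shared by the whole cluster, whereas a beta gene has no shared constant exon. The last genes of alpha and gamma, called C-type, are known to be regulated differently from the others. Many of the promoters carry a conserved element with the core CGCT, and the insulator protein CTCF is known to bind at many of them.

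In the RefSeq gene table of GRCh38.p14 the alpha cluster had 15 protein-coding genes and 1 pseudogene, beta had 16 and 3, and gamma had 22 and 2. RefSeq promoter entries, each from 250 bases before to 50 after a gene's start, were matched by symbol for 13 alpha, 14 beta and 20 gamma genes. This build differs from that of the list, so no peak was tied to a single gene, and the positions of the sequences below cannot be set beside those of the peaks. The sequences are shown because they carry what the promoters of each cluster share and where the clusters differ. Each is 60 bases, 5′ to 3′, with the CGCT core in capitals, and is the CGCT of that promoter whose surroundings were most like those of its cluster, as counted below. In alpha these are the first 2 genes and both C-type genes.
PCDHA1 (chr5:140786074-140786133, plus strand): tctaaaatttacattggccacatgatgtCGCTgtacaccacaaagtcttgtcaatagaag
PCDHA2 (chr5:140794769-140794828, plus strand): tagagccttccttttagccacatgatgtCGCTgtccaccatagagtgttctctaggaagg
PCDHAC1 (chr5:140926208-140926267, plus strand): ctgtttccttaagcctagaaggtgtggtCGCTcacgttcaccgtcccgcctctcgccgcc
PCDHAC2 (chr5:140966353-140966412, plus strand): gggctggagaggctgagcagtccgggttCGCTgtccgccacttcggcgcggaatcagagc
In beta these are the first, the second and the last gene.
PCDHB1 (chr5:141051262-141051321, plus strand): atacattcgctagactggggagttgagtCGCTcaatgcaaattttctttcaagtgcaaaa
PCDHB2 (chr5:141094532-141094591, plus strand): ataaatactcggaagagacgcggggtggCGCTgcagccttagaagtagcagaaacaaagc
PCDHB15 (chr5:141245302-141245361, plus strand): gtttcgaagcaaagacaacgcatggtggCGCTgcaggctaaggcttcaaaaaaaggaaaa
In gamma these are the first 2 genes and the C-type genes PCDHGC3 and PCDHGC4, as no promoter entry was matched for PCDHGC5.
PCDHGA1 (chr5:141330391-141330450, plus strand): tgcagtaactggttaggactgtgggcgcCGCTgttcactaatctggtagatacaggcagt
PCDHGA2 (chr5:141338691-141338750, plus strand): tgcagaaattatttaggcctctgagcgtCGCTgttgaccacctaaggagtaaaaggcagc
PCDHGC3 (chr5:141475868-141475927, plus strand): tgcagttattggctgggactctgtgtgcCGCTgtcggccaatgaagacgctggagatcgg
PCDHGC4 (chr5:141484940-141484999, plus strand): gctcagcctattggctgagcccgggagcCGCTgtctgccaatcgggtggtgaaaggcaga
PCDHA2, PCDHB2 and PCDHGA2 were added after the sequences had been seen, and the others follow from the rule for named genes.

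The core CGCT, searched anywhere in an entry on both strands, was in the promoters of 12 of 13 alpha, 14 of 14 beta and 20 of 20 gamma genes. It was in 70% of all 35116 promoter entries. A gene of a cluster counted if any of its entries held the letters, and gamma had 25 entries for 20 genes, whereas the share over all is by single entry. PCDHA9 was the alpha gene without it. The bases before the core differed between the clusters. GATGTCGCT, which holds the core CGCT, was in 9 of 13 alpha promoters and in no beta or gamma promoter, against 0.105% of all entries. GGTGGCGCT was in 13 of 14 beta promoters and in no alpha or gamma promoter, against 0.501% of all entries, and the beta promoter without it was that of PCDHB1. GCGCCGCTG was in 10 of 20 gamma promoters and in no alpha or beta promoter, against 1.28% of all entries. These runs of 9 bases were picked as the commonest with CGCT in each cluster, so their counts are a description of the sequences that chose them. Counted from the gene's start, the median position of the chosen CGCT was -55 in alpha (range -95 to -38), -61.5 in beta (-84 to 3) and -60 in gamma (-199 to -39).

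How far the shown stretches resemble their own cluster was counted over 28 bases, the core with 12 bases on either side, against the commonest base at each place in the cluster. The median was 24 matching bases in alpha, 24 in beta and 22 in gamma. PCDHA1 matched at 27 and PCDHA2 at 26, whereas the C-type genes PCDHAC1 and PCDHAC2 matched at 13 and 16. In beta, PCDHB1 matched at 14 and PCDHB15 at 25. PCDHGC3, at 21, was near the gamma median, and PCDHGC4 was lower at 18. Low counts were not limited to the first and the C-type genes, since PCDHA11 matched at 15, PCDHGB3 at 15 and PCDHGB7 at 7, 3 genes named after their values were seen. The run gtcggccagtgcagagcaag directly follows the chosen CGCT of PCDHGB6, whereas in PCDHGB7 it follows CGCC and comes before the chosen CGCT. The count of 7 thus compares another place of PCDHGB7 with the cluster.

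CCCTC, the core of a CTCF motif, was on either strand in 3 of 13 alpha, 0 of 14 beta and 11 of 20 gamma promoters, against 71.2% of all entries. The clusters were again counted by gene, with any entry of the gene, and the share over all by single entry. The promoters were poorer in G and C than most, with a median GC content of 37.3% in the 13 alpha, 40.8% in the 14 beta and 47.3% in the 25 gamma entries, against 58.7% over all entries. Their ratio of observed to expected CpG was close to the median of all entries, at 0.593, 0.631 and 0.635 against 0.579. Absence of CCCTC says only that these letters are not in the 300 bases. A full CTCF motif was not searched for, so these counts do not show which promoters have a CTCF site.

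The 3 clusters differed widely in how many summits were listed. Gamma had 525 summits per Mb (95% exact Poisson interval 429 to 636), alpha had 221 (165 to 289) and beta had 25 (9.17 to 54.4). Alpha was thus 8.83 times as dense as beta (exact interval of the ratio 3.8 to 25.1), gamma 21.0 times as dense as beta (9.33 to 58.5), and gamma 2.38 times as dense as alpha (1.69 to 3.37). These intervals cover counting error only. Neighbouring summits share reads and PCR copies of 1 molecule cannot be recognised, so no p-value is given. With each region counted once the order was the same, at 330 regions per Mb in gamma, 142 in alpha and 25 in beta. Among summits of 20 reads or more gamma was not denser than alpha, at 65.0 and 66.7 per Mb (ratio 0.975, exact interval 0.431 to 2.16), and beta had 4.17.

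Beta stood near the median stretch of the list and below its mean, and alpha and gamma stood above both. Over chromosomes 1 to 22 and X, the median of 12633 side by side windows of 240 kb was 4 summits and the mean 29.3, and beta with 6 stood at percentile 59.1. Alpha with 53 stood at percentile 87.1 of the same windows. Gamma stood at percentile 93.9 of 15161 windows of 200 kb, whose median was 3 summits and mean 24.4. On chromosome 5 alone the percentiles were 57.4 for beta, 89.9 for alpha and 96.8 for gamma. The whole locus, with 166 summits against a median of 13 in windows of 740 kb, stood at percentile 86.7. Windows ran from the start of each chromosome to its last listed region. Those in gaps of the assembly, which can hold no summit, were not left out. Such windows can only lower the medians and means and raise the percentiles, by an amount that was not measured.

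**Figure D1:**
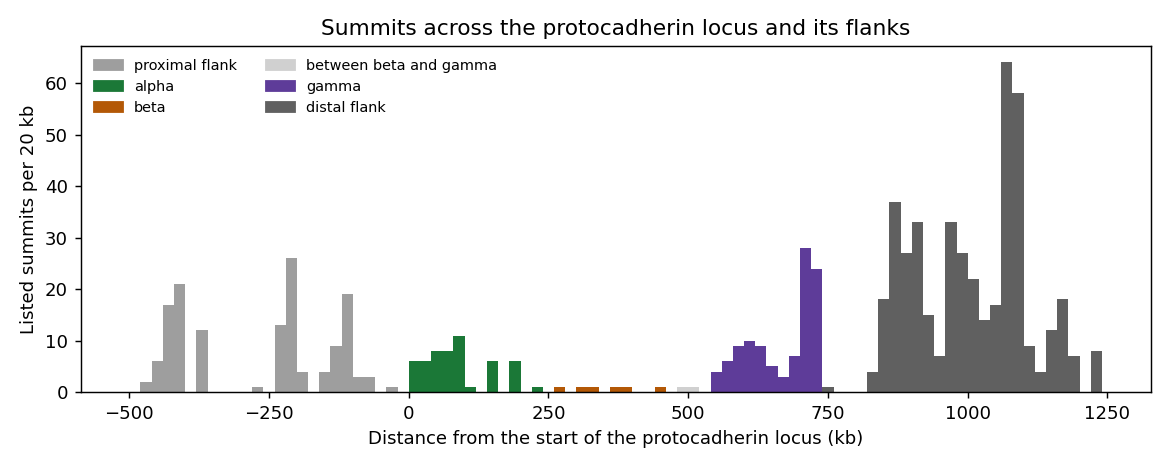
Listed summits in bins of 20 kb (bars, vertical axis) against the distance in kb from the start of the protocadherin locus, coloured by segment, over the locus and 500 kb on either side. Alpha and gamma form separate blocks, beta has at most 1 summit in a bin, and the distal flank holds the tallest bars.

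The 500 kb on either side were unlike each other. The proximal flank, on the side of alpha, had 141 summits in 70 regions or 282 per Mb, and the distal flank, on the side of gamma, had 435 in 222 regions or 870 per Mb, 3.09 times as many (exact interval 2.55 to 3.76). Over both flanks together the density of the locus was 0.389 of the flanks' (0.326 to 0.464). That ratio was 0.795 against the proximal flank alone and 0.258 against the distal flank alone. Gamma lay between the flanks, at 1.86 times the proximal (1.43 to 2.41) and 0.603 of the distal (0.483 to 0.748). Alpha was at 0.783 of the proximal flank (0.560 to 1.08), an interval that holds 1, and at 0.254 of the distal (0.187 to 0.338). Beta was below both, at 0.0887 (0.0320 to 0.198) and 0.0287 (0.0105 to 0.0631). The genes next to the locus in RefSeq order are HARS1, HARS2, ZMAT2 and the vault RNA genes VTRNA1-1, VTRNA1-2 and VTRNA1-3 before alpha. DIAPH1, HDAC3 and RELL2 follow gamma, with the non-clustered protocadherin PCDH1 further on. HARS1 and HARS2 encode histidyl-tRNA synthetases, and HDAC3 encodes a histone deacetylase. SLC25A2, a mitochondrial carrier gene, and TAF7, a gene for a subunit of general transcription factor TFIID, lie between beta and gamma.

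Stretches without listed regions lay at both edges of the locus, and some inside it were longer than the first of these. Before the first alpha region 34.0 kb held none (140133430 to 140167384). After the last gamma region 7.94 kb held none, and after the next region a further 93.6 kb (140904629 to 140998179) held none.

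The strength of a summit is given by its fold enrichment, the signal over the background, and by its pileup, or reads stacked there. All summits of the list that could be solved shared a background of 2.01 reads, so fold and pileup rank the summits in the same way and a fold is no ratio to the control cells. Pileups in the locus ran from 10, the lowest in the list, to 32 reads, with a median of 15, which was also the median of all listed summits. The median fold was 5.65 in alpha, 4.99 in beta and 5.32 in gamma, against 5.32 over all summits. The median fold in the proximal flank was 5.65 and in the distal flank 5.32. In the middle of their range the summits of the locus were therefore as strong as those of the whole list.

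By summits, fewer in the locus than in the list were high, and by regions this was within counting error. Of all 371521 summits 26.5% had 20 reads or more, against 30 of the 166 in the locus (18.1%, 95% Wilson interval 12.96 to 24.6%, counting error only). In alpha 16 of 53 summits reached 20 reads (30.2%, 19.5 to 43.5%), in beta 1 of 6 (16.7%, 3.01 to 56.4%) and in gamma 13 of 105 (12.4%, 7.38 to 20.04%). By summits the share in gamma lay below that of the list beyond its counting error, and the share in alpha did not. Summits of 1 region are not independent, and with each region taken once by its highest summit gamma had 11 of 66 (16.7%, 9.57 to 27.4%) and the locus 21 of 108 (19.4%, 13.1 to 27.9%). Over the whole list that share was 21.9%, which lies inside both intervals. This count by regions was added after the data were seen. In the proximal flank 46 of 141 summits reached 20 reads (32.6%) and in the distal flank 114 of 435 (26.2%). At 30 reads or more were 6.22% of the list, and only 1 of the 166 summits of the locus had so many. The flanks had 8 and 13 of them, with highest pileups of 45 and 46 reads.

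**Figure D2:**
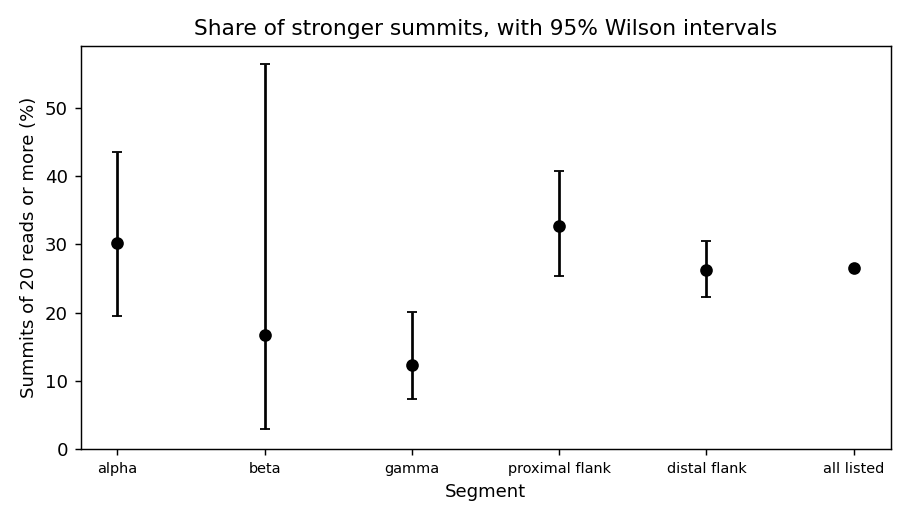
Share of summits of 20 reads or more, in percent, in the 3 clusters, the 2 flanks and all listed summits, with bars for 95% Wilson intervals (counting error only). Alpha is near the 26.5% of all listed summits, gamma is lower at 12.4%, and the bar of beta is wide because it has 6 summits.

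The alpha cluster was a row of small, separate groups of regions. When regions at most 2000 bp apart were joined, its 34 regions formed 17 groups. The first 14 groups lay between 140167385 and 140263859, with a median of 6.96 kb from the middle of one to the middle of the next and a range of 5.06 to 14.5 kb over 13 spacings. Groups 14, 15, 16 and 17 were much further apart, at 42.6, 40.5 and 37.2 kb. The number of 17 held at each gap tried from 1000 to 4000 bp and became 18 at 500 bp.

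The RefSeq table lists, in order, PCDHA1 to PCDHA13 with the pseudogene PCDHA14, together 14 loci, then the C-type genes PCDHAC1 and PCDHAC2, then 1 entry for the constant region (PCDHACT). That is 17 entries for 17 groups of regions. This match of numbers and order was noticed after the groups had been counted, and no group was assigned to a gene. Distances between the genes were not compared with those between the groups.

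The first 14 alpha groups were short and of moderate height. They spanned 118 to 1249 bp (median 693) and had 1 to 4 summits each. Their highest summits had 13 reads in groups 1, 5 and 7, 14 in group 14, 17 in group 10, 18 in group 6 and 19 in groups 3, 8 and 9. The higher ones were groups 2 and 11 with 21 reads, groups 12 and 13 with 22 and group 4 with 24. Group 4 was a single region from 140188465 to 140188993 with 3 summits of 20 reads or more, and it lay before the widest spacing of the row, 14.5 kb. Thus 5 of the first 14 groups reached 20 reads.

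Groups 15 and 16 were wider and stronger than most of the row, but group 17, whose middle lay 37.2 kb beyond that of group 16, was neither. They spanned 1204 and 1989 bp and had 6 summits each, against at most 4 in any earlier group. The region from 140345938 to 140346643 in group 16 held the highest alpha summit, at 140345974, with 28 reads, a fold of 9.64 and a −log10 p of 23.01, and its lowest summit had 18 reads. In group 15, the region from 140305804 to 140306551 had 5 summits of up to 24 reads (fold 8.31). Over both groups the median fold was 7.15, against 5.32 in the first 14 groups. Of their summits 7 of 12 reached 20 reads, against 9 of 40 in the first 14 groups and 26.5% of the whole list. All 7 lay in the single region named for each group, and summits of 1 region are not independent. By regions, 9 of the 34 in alpha reached 20 reads (26.5%, Wilson interval 14.6 to 43.1%), against 21.9% of the whole list. That count was not split by group. Group 17, the last of alpha, was 1 summit of 13 reads in a region of 179 bp.

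**Figure D3:**
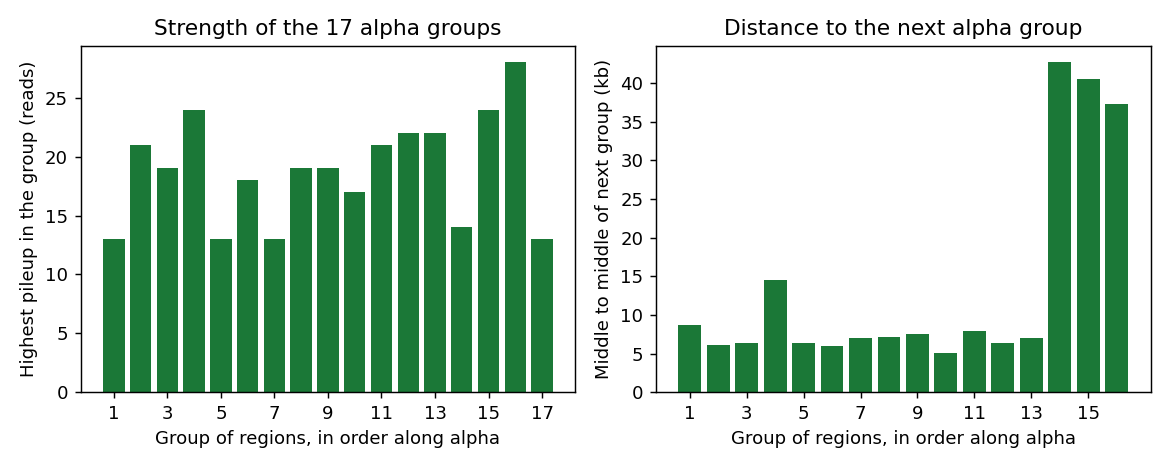
The 17 alpha groups of regions in order along the cluster (horizontal axes), with the highest pileup of each in reads (left) and the distance in kb from its middle to the middle of the next (right). The first 14 groups follow each other at 5.06 to 14.5 kb, and groups 15 and 16, with 24 and 28 reads, stand 40.5 kb apart.

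The beta cluster held 6 lone summits, far apart. In order they had 25, 14, 14, 19, 12 and 11 reads. The strongest, in the region from 140420613 to 140420900, had 25 reads (fold 8.64, −log10 p 19.6), and it was the beta summit nearest to alpha. Neither this region nor any other in the beta bounds was assigned to a beta gene. The next 2 by fold were the region from 140537002 to 140537294 with 19 reads and that from 140474300 to 140474433 with 14. Each beta region had 1 summit, and regions were 114 to 293 bp wide, so that 0.476% of the cluster was covered, against 3.53% in alpha, 9.62% in gamma and 2.43% of the whole list's span.

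The 3 longest stretches of the locus without a listed region were all in beta. They measured 55.5 kb (140559873 to 140615382), 55.3 kb (140481698 to 140537001) and 53.4 kb (140420901 to 140474299). Of 197646 stretches between neighbouring regions on chromosomes 1 to 22 and X, 5.02% were as long as the longest of these. With 16 genes and 6 regions, beta had fewer listed regions than genes, whereas alpha had 34 regions for 15 genes and gamma 66 for 22.

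The list holds no summit below 10 reads, so beta promoters with fewer reads would not be listed, and a low count does not show closed chromatin. Promoters open alike in both kinds of cell could also be missing, if the list holds differences from control. Beta genes are known to resemble each other, and reads that fit several genes can be lost in alignment. Of 14 beta promoters 2 shared an exact run of 36 bases or more with another of the cluster, the longest being 55 bases between PCDHB8 and PCDHB13. In alpha 0 of 13 did, and in gamma 4 of 20 did. The median of each promoter's longest shared run was 16 bases in alpha, 18.5 in beta and 18 in gamma. Gene bodies were not compared, the labels do not state the read length, and the part of such sequences in the low count of beta was not tested.

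The gamma cluster had a long row of low summits followed by a short, dense block. Its 66 regions formed 26 groups when regions at most 2000 bp apart were joined, but this number moved with the gap, from 44 at 500 bp to 17 at 4000 bp. The longest stretch without a region in gamma, 33.6 kb from 140821691 to 140855318, separates the first 22 groups from the last 4, a division chosen after the values were seen. The first 22 groups held 46 summits over 121 kb, with a median fold of 4.65 and a highest pileup of 20 reads. That highest summit, which alone of the 46 reached 20 reads, was the first of the cluster, at 140700274. It lay close to the cluster's lower bound, and in RefSeq order TAF7 lies between beta and gamma. Whether this summit belongs to a protocadherin gene was not tested.

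The last 4 gamma groups held 59 of the 105 summits (56.2%) in 41.2 kb, or 1431 per Mb, with a median fold of 5.32. That median is the same as over all listed summits. Of these summits 12 reached 20 reads (20.3%, Wilson interval 12.04 to 32.3%), against 1 of 46 before the gap and 26.5% of the whole list. Their strongest region ran from 140891680 to 140892126 and held the highest summit of the whole locus, with 32 reads, a fold of 10.97 and a −log10 p of 27.8. The region from 140870494 to 140872474 was the widest of the locus, at 1981 bp, and the one with the most summits, 12, which had from 10 to 29 reads. The third by fold, from 140889196 to 140889486, was 1 summit of 25 reads. In RefSeq order the last gamma genes are the C-type PCDHGC3, PCDHGC4 and PCDHGC5, and DIAPH1 follows them. The block ends close to the cluster's upper bound, and none of these regions was assigned to a gene. Whether all of them belong to protocadherin genes was not tested.

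**Figure D4:**
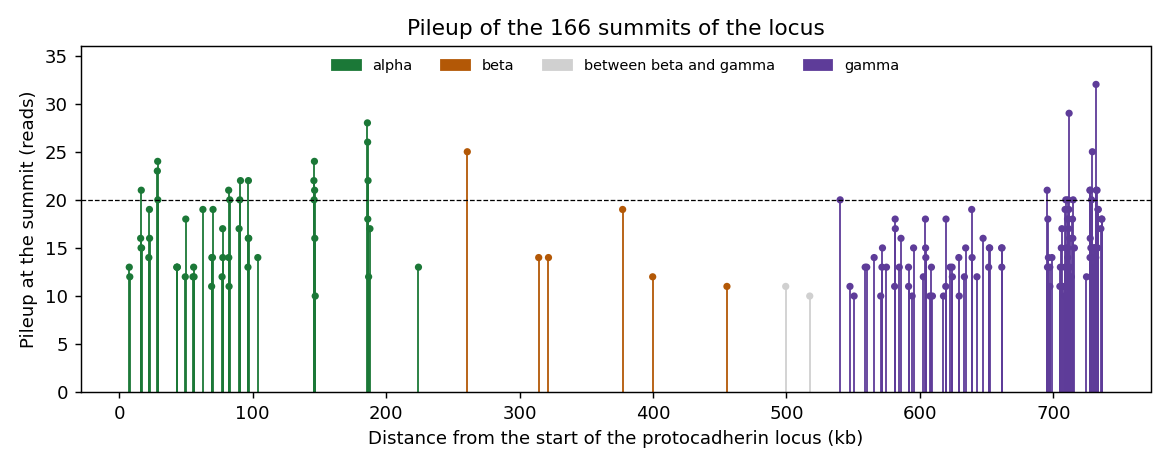
Pileup in reads of each of the 166 summits (vertical lines with points) against distance in kb from the start of the locus, coloured by cluster, with a dashed line at 20 reads. Alpha shows narrow, separate stacks with the highest at 28 reads, beta 6 lone summits, and gamma a row at or under 20 reads followed by the block with 29 and 32 reads.

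The strongest summits of both flanks were higher than any in the locus. In the proximal flank the strongest region, from 139943715 to 139944629, had 45 reads (fold 15.3), and the next were 139780195 to 139782438 with 38 and 140044086 to 140044696 with 35. In the distal flank the strongest, from 141227931 to 141230057, had 46 reads (fold 15.6) and 12 summits, followed by 141015842 to 141018632 with 43 and 141348369 to 141349234 with 39. Each of these 6 regions had a higher summit than the 32 reads that were the most in the protocadherin locus.

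**Figure D5:**
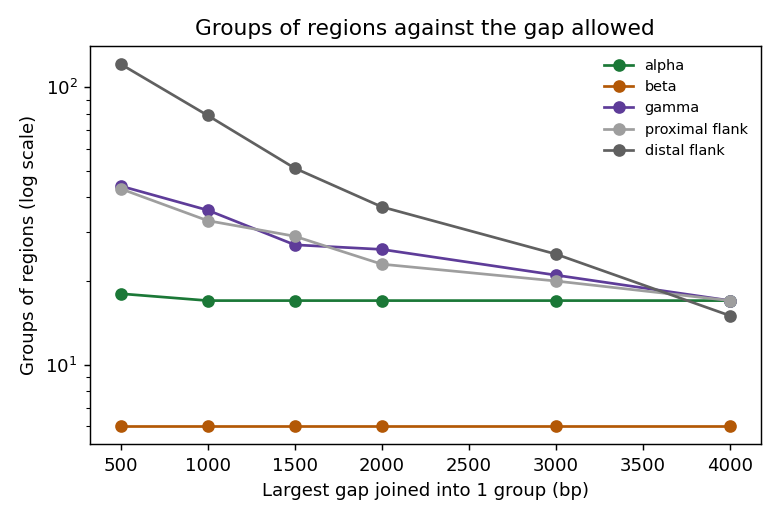
Number of groups of regions (vertical log axis) against the largest gap in bp joined into 1 group, for the 3 clusters and both flanks. Alpha stays at 17 from 1000 to 4000 bp and beta at 6, whereas gamma falls from 36 to 17, the proximal flank from 33 to 17 and the distal flank from 79 to 15 over the same gaps.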

How the data were processed

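The ATAC-seq samples were 2 multiH1 knock-down and 2 random shRNA samples, and the labels do not say whether they are separate cultures. Per the submitters' processing notes, the authors used Bowtie 1.1.2, MACS2 and hg19. The sources used here do not say how MACS2 was set, whether replicates were pooled or how many reads each sample had. The deposited fold is a ratio, signal over background at the summit, and the deposited p-value is on a −log10 scale. The deposited q-value and score were not used. Each line is a summit, and a distinct start and end is a region. Positions are counted from 1.

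Pileup and background were solved from the fold and the Poisson tail. All 182 distinct pairs whose p was within floating point range matched within 0.001, with a background of 2.01 reads. The solver and the grouping of regions were tested on simulated data. Densities carry exact Poisson intervals, ratios of densities the exact interval given their sum, and shares 95% Wilson intervals. Named are the 3 regions with the highest fold in each cluster and flank, the widest region, the one with the most summits, and the longest stretches without a region. The members, lists and cluster bounds were chosen with earlier results of these data known. The grouping of regions, its gaps, and the split of gamma were chosen after the data were seen. So was the division of alpha into its first 14 groups, groups 15 and 16, and group 17. Alternatives are given in the closing section. Python 3.11.15, numpy 2.4.6, scipy 1.17.1, pandas 2.3.3 and matplotlib 3.10.9 were used.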

Additional observations from a re-analysis of the deposited data

How the results depend on the processing

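Of 58 alternative values 32 stayed within the counting interval of the reported value, or within 1.5 times it for groups of regions, and 26 moved. Counting each region of the locus, not each of its 166 summits, gave 108, and a minimum of 20 reads left 30, both by construction. The ratio of locus to flanks (0.389) became 0.253 at 20 reads or more, 0.4998 with regions in place of summits, 0.308 in the 50% of summits with the highest fold, 0.508 with flanks of 1 Mb, 0.795 against the proximal and 0.258 against the distal flank, and stayed below 1 in each. Densities per Mb with each region counted once were 142 in alpha and 330.0 in gamma, and the same with regions within 100 bp merged. At 20 reads or more they were 66.7 in alpha, 4.17 in beta and 65.0 in gamma, so that gamma was no longer denser than alpha. Beta was the least dense under each alternative. At 30 reads or more the shares fell to 0% in alpha, 0% in beta and 0.952% in gamma. The percentiles among windows on chromosome 5 were 90.6 for the locus, 89.9 for alpha, 57.4 for beta and 96.8 for gamma, and with each region counted once 86.2 for alpha and 65.0 for beta. The number of gamma groups (26) was 44 with a gap of 500 bp and 17 with 4000 bp. Other causes were not tested. No paired analysis was possible because samples have no columns of their own in the list, which also kept replicates from being left out. Nothing under 10 reads is listed, and the list is named differential, and both limit what a low count shows.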

Other observations

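The row of separate alpha groups was compared with other stretches of the same length, after it had been seen. Among windows of 240 kb on chromosomes 1 to 22 and X, 3026 had at least 10 groups of regions when gaps of up to 1000 bp were joined. In 37 of these (1.22%) the number of groups was the same when gaps of up to 4000 bp were joined, as it was in alpha with 17 and 17. The median window kept 0.523 of its groups, gamma kept 0.472, the proximal flank 0.515 and the distal flank 0.190. The 6 groups of beta, too few to enter that count, also stayed 6. These values describe positions in 1 list and are no test.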
